A study of Homo sapiens with 12 samples.

Results

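The genes described here encode the integrins, which are cell-surface receptors for the extracellular matrix, and the main proteins they bind: laminins, collagens, nidogens, perlecan and tenascin C. They were chosen by name, as integrin alpha and beta genes (ITGA and ITGB), laminin chains (LAMA, LAMB and LAMC) and collagen chains (COL), with TNC, NID1, NID2 and HSPG2 added. A member also had to reach at least 10 counts in at least 4 libraries. Of the 57773 genes in the deposited table, 92 matched by name and 76 met the count rule. The 75 members described here all passed the filter of the test. The measurements come from A549 cells, an established human lung adenocarcinoma line, harvested 72 h after reverse transfection with an siRNA at 50 nM. The groups were siGOLM1-1, siGOLM1-2 and a control siRNA labelled non-targeting, with 4 libraries each that the labels call biological replicates. Both GOLM1 siRNAs target GOLM1, which encodes a membrane protein of the Golgi, and all 3 groups received the same transfection reagent. No untransfected cells and no rescue were among the samples analysed.

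Integrins are pairs of 1 alpha and 1 beta subunit, and the pair decides which matrix protein is bound. Laminin trimers, collagen IV, nidogens and perlecan build the basement membrane under epithelia such as the lung's, and fibrillar collagens build the interstitial matrix. Integrins, laminins and collagens are made in the endoplasmic reticulum and pass through the Golgi, where their sugars are finished, before they reach the surface or the matrix. RNA counts do not show how much protein was made or where it went, and in bulk samples fewer cells that express a gene and less RNA per cell cannot be told apart.

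Each library held between 41.6 M and 71.3 M counts in genes. GOLM1 was measured at 37.5 to 38.9 CPM (counts per M counts of the library, scaled with TMM factors) with siGOLM1-1 and at 44.6 to 53.4 CPM with siGOLM1-2, against 344.5 to 378.1 CPM in the control, which left 10.5% and 13.0% of its control level. Control libraries fell into pairs. Over all genes tested, deviations from the control mean correlated at 0.59 between control replicates 1 and 2 and at 0.70 between replicates 3 and 4, and at -0.84 to -0.80 across the pairs, and no label names a batch. The epithelial markers fixed for A549 summed to 15261 to 17590 CPM with siGOLM1-1, 14481 to 15998 CPM with siGOLM1-2 and 16949 to 19138 CPM in the control, and none of its 8 genes was at 0. Marker lists of other cell types were low: the fibroblast list summed to 44.8 to 55.4 CPM with siGOLM1-1, 71.8 to 86.4 CPM with siGOLM1-2 and 57.5 to 70.6 CPM in the control, and the leukocyte list to 9.52 to 16.3, 10.9 to 12.9 and 6.78 to 7.37 CPM in the same order. Of the fibroblast list, DCN reached at most 0.121 CPM, while PDGFRA and LUM, below 3 CPM throughout, fell with siGOLM1-1 (-1.08 and -1.69) and rose with siGOLM1-2 (1.85 and 1.06). These genes made up little of the fibroblast sum, in which the highest level of any gene was 55.7 CPM. The leukocyte list was mostly CD14, and PTPRC reached at most 0.0404 CPM. The 4 endothelial genes found stayed at or below 2.01 CPM in sum in every library, and the alveolar type II list summed to 53.7 to 64.1, 139.3 to 150.7 and 97.7 to 102.8 CPM in that order, with 1 of its 5 genes at 0 throughout. That sum was almost all ABCA3, the only gene of the list that passed the filter of the test (-0.76 with siGOLM1-1 and 0.55 with siGOLM1-2). The highest level of any gene in the list was 150.6 CPM. The sum therefore does not describe alveolar type II markers as a group. The part of these shifts in the results below was not tested.

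The 2 siRNAs gave different patterns over these 75 genes. With siGOLM1-2 most of the genes that moved were higher, among them the alpha subunits ITGA3, ITGA2 and ITGA4, 7 of the 10 laminin chains described, NID1 and TNC. With siGOLM1-1 more members fell than rose, among them ITGA1, ITGA10, ITGB6, ITGB7, LAMB3, COL4A6 and TNC. The call of LAMB3 was lost with control replicates 1 and 2 alone. The alpha subunits ITGA2, ITGAM and ITGAX and the beta subunits ITGB1, ITGB3 and ITGB5 were called higher with both. So were the laminin chains LAMA3 and LAMC3, the collagens COL4A1, COL6A1, COL6A2, COL22A1 and COL27A1, and ITGB1P1, which is not a subunit. Called lower with both were ITGAL, ITGB6, ITGB8, COL5A2, COL11A1 and COL26A1. Some of these calls, such as those of COL4A1, ITGB3 and ITGB6 with siGOLM1-2 and of LAMC3 with either siRNA, were lost in alternative settings.

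A gene was called at an adjusted p under 0.05 in edgeR's quasi-likelihood test with Benjamini-Hochberg adjustment over all 17532 genes tested, and all adjusted p-values below come from it. Called with siGOLM1-1 were 43 of the 75 members (57.3%, against 47.5% of all genes tested), 18 of them higher (24%, against 23.7%) and 25 lower (33.3%, against 23.8%). With siGOLM1-2, 49 members were called (65.3%, against 45% of all genes), 37 higher (49.3%, against 21.8%) and 12 lower (16%, against 23.2%). The median log2 fold change of the members was -0.13 with siGOLM1-1 and 0.39 with siGOLM1-2, where the median of all genes was -0.01 in each. A rise of at least 1 on the log2 scale was called for 5 members with siGOLM1-1 (6.67%, against 5.72% of all genes) and 24 with siGOLM1-2 (32%, against 6.51%), and a fall of at least that size for 13 (17.3%, against 6.09%) and 4 (5.33%, against 4.12%). With siGOLM1-1 the share of members called higher was close to that of the background. Scaling by library totals alone moved the background of siGOLM1-1 to 20.6% higher and 27.2% lower, where 17 members were higher and 25 lower, and that of siGOLM1-2 to 26.7% higher and 18.4% lower, where 38 were higher and 10 lower. The 2 comparisons share their control libraries.

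**Figure D1:**
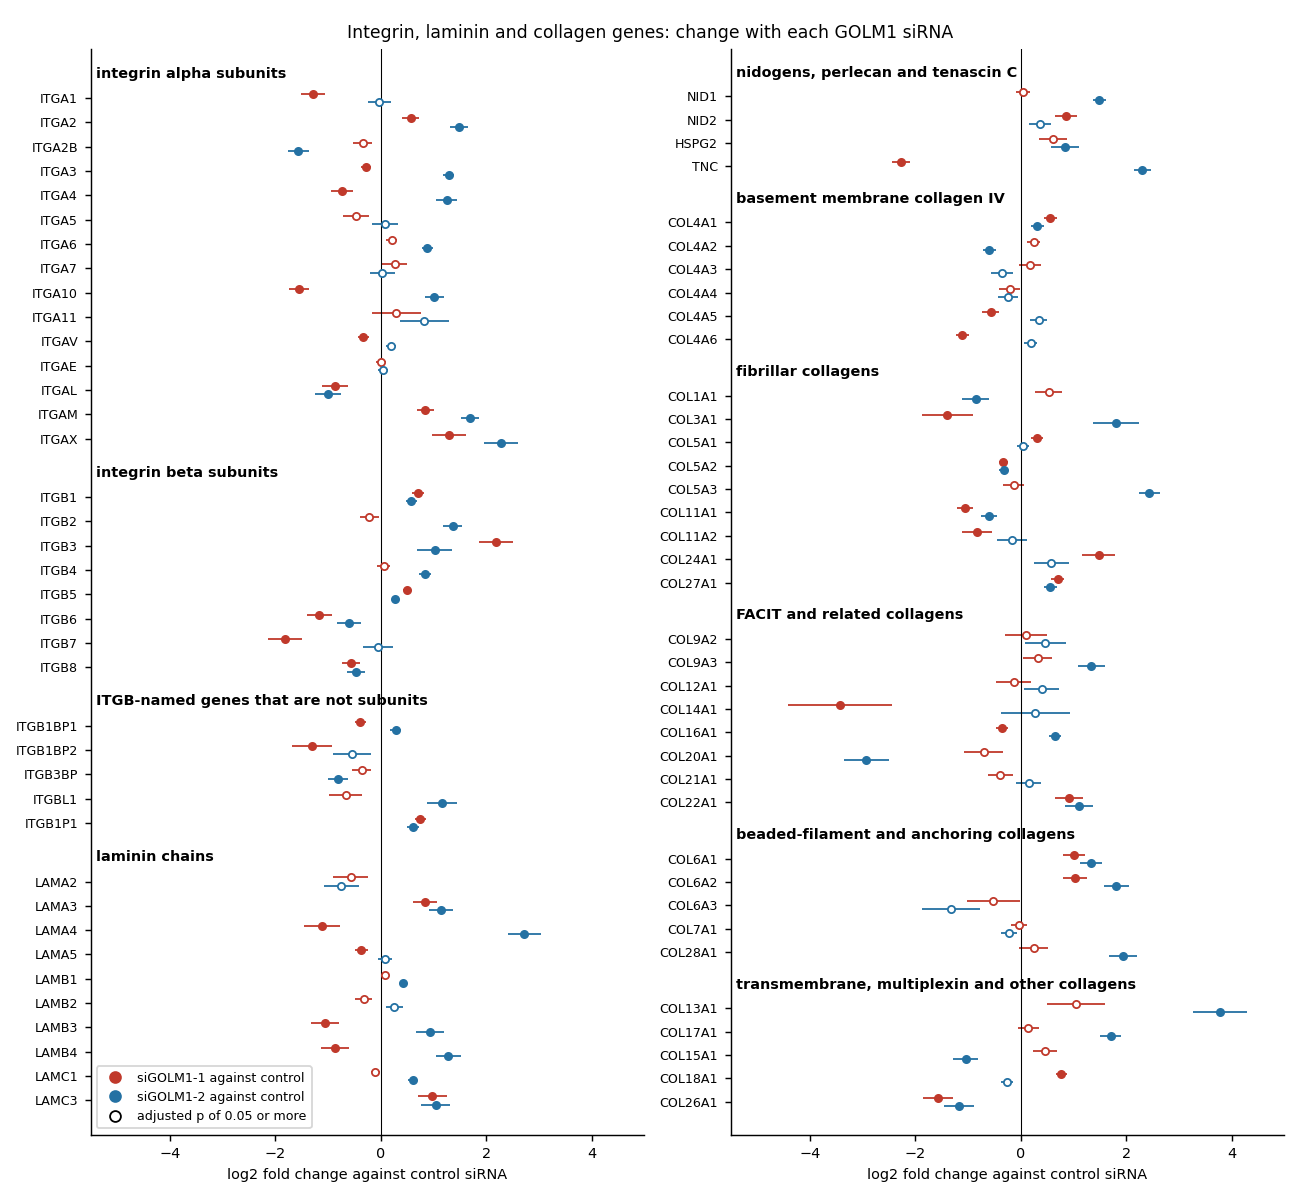
Log2 fold change of each of the 75 genes with siGOLM1-1 (red) and siGOLM1-2 (blue) against control, by family, with bars of 1 standard error (n = 4 libraries per group). Filled points have an adjusted p under 0.05; TNC lies at -2.27 with siGOLM1-1 and at 2.31 with siGOLM1-2.

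The direct comparison of siGOLM1-1 with siGOLM1-2, which uses no control library for its means, tested whether the siRNAs differed. Of the 75 members, 45 were called (60%, against 54.4% of all genes), 10 higher with siGOLM1-1 (13.3%, against 27.9%) and 35 lower (46.7%, against 26.5%), and the members' median was -0.53 where that of all genes was 0.01. With scaling by library totals alone, 20.3% of all genes were higher and 34% lower with siGOLM1-1, and the median of all genes moved to -0.12. Members were then called higher 8 times and lower 39 times. A difference of at least 1 on the log2 scale was called for 6 members higher with siGOLM1-1 (8%, against 6.89%) and 20 lower (26.7%, against 9.49%). The libraries of the siRNAs did not overlap for 44 members (58.7%, against 48.4%). Against control, the libraries did not overlap for 32 members with siGOLM1-1 (42.7%, against 41% of all genes) and 44 with siGOLM1-2 (58.7%, against 45.9%).

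Among the beta subunits, ITGB1 is the common partner of most matrix-binding alpha subunits. ITGB1 (ENSG00000150093) was measured at 2369, 2102, 2463 and 1942 CPM in the siGOLM1-1 libraries, 1977, 2177, 2019 and 1942 CPM in the siGOLM1-2 libraries and 1540.0, 1484, 1232 and 1181 CPM in the control libraries. Every library of both siRNAs lay above every control library, and the siRNA groups overlapped each other. ITGB1 rose with siGOLM1-1 (0.71 on the log2 scale, SE 0.11, adjusted p = 0.000101) and with siGOLM1-2 (0.58 on the log2 scale, SE 0.11, adjusted p = 0.000571). The siRNAs differed by 0.13 on the log2 scale (95% interval -0.11 to 0.37, adjusted p = 0.319).

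ITGB5, which pairs with the alpha V subunit to bind vitronectin, also rose with both siRNAs. It was measured at 643, 711, 741 and 704 CPM in the siGOLM1-1 libraries, 614, 611, 591 and 602 CPM in the siGOLM1-2 libraries and 489, 491, 523 and 491 CPM in the control libraries. The 3 groups were separate, with siGOLM1-1 highest and control lowest. ITGB5 (ENSG00000082781) was higher by 0.49 on the log2 scale with siGOLM1-1 (SE 0.06, adjusted p = 3.31e-05), by 0.28 with siGOLM1-2 (SE 0.06, adjusted p = 0.00303) and by 0.21 in siGOLM1-1 over siGOLM1-2 (SE 0.06, adjusted p = 0.0126). The last call was lost with library totals alone.

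ITGB4, the partner of ITGA6 in hemidesmosomes, which fix epithelial cells to laminin, moved with siGOLM1-2 alone against control. Its level was 179, 183, 217 and 220.3 CPM in the siGOLM1-1 libraries, 352, 348, 368 and 309.8 CPM in the siGOLM1-2 libraries and 157, 177, 199 and 236 CPM in the control libraries. All siGOLM1-2 libraries were above the other 8, while the siGOLM1-1 and control libraries overlapped. The change was 0.84 with siGOLM1-2 (SE 0.12, adjusted p = 6.57e-05) and 0.05 with siGOLM1-1 (SE 0.12, adjusted p = 0.727). The direct comparison of siGOLM1-1 with siGOLM1-2 gave -0.79 (adjusted p = 6.75e-05).

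ITGB3, the partner of alpha V and of the platelet subunit ITGA2B, was measured at 1.95, 2.81, 3.36 and 2.75 CPM in the siGOLM1-1 libraries, 0.928, 1.02, 0.842 and 2.05 CPM in the siGOLM1-2 libraries and 0.42, 0.385, 0.847 and 0.705 CPM in the control libraries. These are 16 to 166 counts per library. Each siGOLM1-1 library was above each control library, and siGOLM1-2 overlapped both. ITGB3 rose with siGOLM1-1 (2.19 on the log2 scale, SE 0.32, adjusted p = 8.84e-05) and with siGOLM1-2 (1.03 on the log2 scale, SE 0.33, adjusted p = 0.0212). The second call was lost with control replicates 3 and 4 alone (0.65), and without siGOLM1-2 replicate 4 (0.65), control replicate 1 or control replicate 2.

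The TGF-beta activating partners of alpha V and the leukocyte subunits completed the beta genes. ITGB6 was lower with siGOLM1-1 (-1.16 on the log2 scale, SE 0.23, adjusted p = 0.00112), with 4.13 to 6.2 CPM with siGOLM1-1, 6.44 to 9.27 with siGOLM1-2 and 7.57 to 16.3 in the control. Its smaller change with siGOLM1-2 (-0.60, adjusted p = 0.0459) was -0.05 with control replicates 1 and 2 alone, -0.39 without control replicate 3, and lost in 12 of the 21 alternative settings. ITGB8 had 3.71 to 5.45 CPM with siGOLM1-1, 4.27 to 6.0 with siGOLM1-2 and 5.52 to 8.43 in the control. It was lower with siGOLM1-1 (-0.57, adjusted p = 0.0153) and with siGOLM1-2 (-0.47, adjusted p = 0.0403), and both calls were lost with control replicates 3 and 4 alone (-0.28 and -0.18) and without control replicate 1, the second in 8 alternatives in all. ITGB7, a partner of ITGA4, had 0.0847 to 0.228 CPM with siGOLM1-1, 0.352 to 0.706 with siGOLM1-2 and 0.42 to 0.572 in the control, fell with siGOLM1-1 (-1.81 on the log2 scale, SE 0.32, adjusted p = 0.000434) and held -0.06 with siGOLM1-2, on 4 to 35 counts per library. ITGB2, the common beta subunit of leukocyte integrins, had 3.39 to 4.82 CPM with siGOLM1-1, 8.17 to 14.5 with siGOLM1-2 and 4.07 to 5.43 in the control and rose with siGOLM1-2 (1.36 on the log2 scale, SE 0.18, adjusted p = 3.77e-05). In all, 3 of the 8 beta subunits were called higher (37.5%, against 23.7% of all genes) and 3 lower (37.5%, against 23.8%) with siGOLM1-1, and 5 higher (62.5%, against 21.8%) and 2 lower (25%, against 23.2%) with siGOLM1-2.

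**Figure D2:**
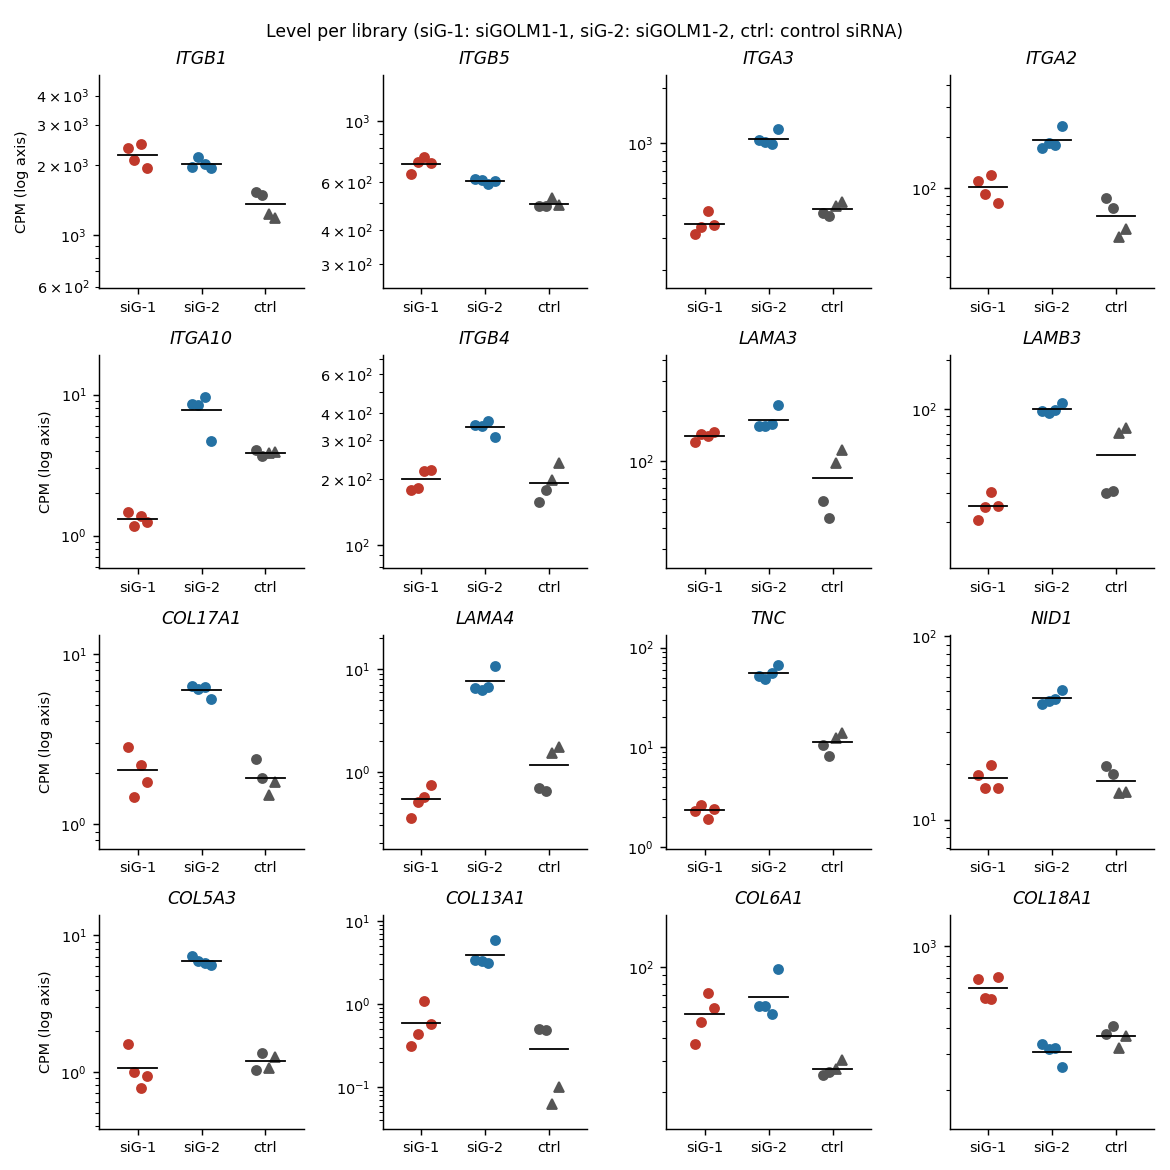
CPM per library on a log axis for 16 members with siGOLM1-1 (red), siGOLM1-2 (blue) and control siRNA (grey; circles, replicates 1 and 2; triangles, replicates 3 and 4), with the mean as a line. ITGA3 lies above the other groups in all 4 siGOLM1-2 libraries, and the control circles and triangles lie apart for LAMB3, LAMA4 and COL13A1.

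Of the 15 alpha subunits, 3 were called higher (20%, against 23.7% of all genes) and 6 lower (40%, against 23.8%) with siGOLM1-1, with a median log2 fold change of -0.27. With siGOLM1-2, 7 were called higher (46.7%, against 21.8%) and 2 lower (13.3%, against 23.2%), with a median of 0.83. ITGA3 and ITGA6 are the epithelial laminin receptors. ITGA3 (ENSG00000005884) was measured at 317, 342, 420.3 and 355 CPM in the siGOLM1-1 libraries, 1037, 1015, 984 and 1189 CPM in the siGOLM1-2 libraries and 414, 396, 451 and 472 CPM in the control libraries. The siGOLM1-2 libraries stood far above all others, while siGOLM1-1 and control overlapped. ITGA3 rose with siGOLM1-2 (1.29 on the log2 scale, SE 0.10, adjusted p = 4.71e-07), 2.44-fold. With siGOLM1-1 the change was -0.27 (SE 0.10, adjusted p = 0.0325), a call lost with control replicates 1 and 2 alone (-0.17) and without any 1 of 5 libraries, namely control replicate 3 or 4 or siGOLM1-1 replicate 1, 2 or 4. In the direct comparison of siGOLM1-1 with siGOLM1-2, ITGA3 was at -1.56 (SE 0.10, adjusted p = 2.92e-08).

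ITGA6 had 77.5 to 115 CPM with siGOLM1-1, 146 to 158 with siGOLM1-2 and 76.6 to 90.2 in the control. It rose with siGOLM1-2 (0.88 on the log2 scale, SE 0.10, adjusted p = 1.31e-05), and its change with siGOLM1-1 was 0.21 (adjusted p = 0.105). The subunits that pair with ITGB1 to bind collagen did not move as 1 group. ITGA2 was measured at 109.6, 92.9, 120.0 and 81.2 CPM in the siGOLM1-1 libraries, 173, 184, 179 and 231 CPM in the siGOLM1-2 libraries and 86.9, 76.4, 51.7 and 57.5 CPM in the control libraries. Its siGOLM1-2 libraries were above all others, and siGOLM1-1 replicate 4 fell within the control range. ITGA2 rose with siGOLM1-2 (1.49 on the log2 scale, SE 0.17, adjusted p = 1.53e-05) and with siGOLM1-1 (0.57 on the log2 scale, SE 0.17, adjusted p = 0.0129), where control replicates 1 and 2 alone gave 0.31, not called, and replicates 3 and 4 alone 0.90.

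ITGA1 had 6.33, 3.45, 2.65 and 2.88 CPM in the siGOLM1-1 libraries, 8.66, 10.1, 9.71 and 8.71 CPM in the siGOLM1-2 libraries and 8.89, 7.91, 9.89 and 11 CPM in the control libraries. All 4 siGOLM1-1 libraries were below all others, and the other groups overlapped. ITGA1 fell with siGOLM1-1 (-1.29 on the log2 scale, SE 0.23, adjusted p = 0.000393), with -0.02 for siGOLM1-2 (SE 0.22, adjusted p = 0.942). ITGA10, another collagen receptor subunit, had 1.48, 1.17, 1.38 and 1.25 CPM in the siGOLM1-1 libraries, 8.56, 8.45, 9.61 and 4.71 CPM in the siGOLM1-2 libraries and 4.04, 3.68, 3.85 and 3.91 CPM in the control libraries. No group overlapped another, with siGOLM1-2 on top and siGOLM1-1 lowest. ITGA10 fell with siGOLM1-1 (-1.55 on the log2 scale, SE 0.19, adjusted p = 2.11e-05) and rose with siGOLM1-2 (1.02 on the log2 scale, SE 0.18, adjusted p = 0.000462), and siGOLM1-1 was 5.92-fold lower than siGOLM1-2 (adjusted p = 1.38e-07). ITGA11, the fourth collagen-binding subunit, had 72.4, 37.1, 31 and 52.2 CPM in the siGOLM1-1 libraries, 79.8, 86.4, 76.3 and 35.9 CPM in the siGOLM1-2 libraries and 63.3, 60.8, 15.9 and 17.1 CPM in the control libraries. It was not called, but its control pairs lay far apart: siGOLM1-1 gave -0.36 when control replicates 1 and 2 were used alone and a called 1.56 when the other pair was, and siGOLM1-2 gave 0.16 and a called 2.09.

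ITGAV and ITGA5 bind vitronectin and fibronectin through the RGD motif. ITGAV had 176 to 243 CPM with siGOLM1-1, 279 to 328 with siGOLM1-2 and 246 to 274 in the control, fell with siGOLM1-1 (-0.33 on the log2 scale, SE 0.10, adjusted p = 0.0133) and was at 0.19 with siGOLM1-2 (adjusted p = 0.132); the fall was -0.29 and not called with control replicates 1 and 2 alone. ITGA5 had 64.8 to 125 CPM with siGOLM1-1, 129 to 204 with siGOLM1-2 and 101 to 186 in the control and was called in none of the 3 comparisons. ITGA4, which binds fibronectin and VCAM1, had 1.74, 1.17, 1.84 and 1.12 CPM in the siGOLM1-1 libraries, 4.72, 6.43, 5.07 and 7.06 CPM in the siGOLM1-2 libraries and 2.8, 2.55, 2.56 and 1.89 CPM in the control libraries. The groups were separate. It fell with siGOLM1-1 (-0.73 on the log2 scale, SE 0.20, adjusted p = 0.00888; -0.58 and not called with control replicates 3 and 4 alone) and rose with siGOLM1-2 (1.25 on the log2 scale, SE 0.19, adjusted p = 0.000169).

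Of the leukocyte and platelet subunits, ITGAM, ITGAX, ITGAL and ITGA2B averaged at most 1.74 CPM per kilobase of exon in any group. ITGAM and ITGAX encode partners of ITGB2. ITGAM had 2.79 to 4.17 CPM with siGOLM1-1, 5.61 to 7.34 with siGOLM1-2 and 1.48 to 2.28 in the control and rose by 0.85 with siGOLM1-1 and 1.69 with siGOLM1-2 (adjusted p = 0.00104 and 4.72e-06). ITGAX had 2.89 to 7.01 CPM with siGOLM1-1, 8.24 to 12.7 with siGOLM1-2 and 1.07 to 3.05 in the control and rose by 1.29 with siGOLM1-1 and 2.29 with siGOLM1-2 (adjusted p = 0.00461 and 8.44e-05). For siGOLM1-1, ITGAX was at 0.83 when control replicates 1 and 2 were used alone and at 1.97 when the other pair was. ITGAL, at or below 1.11 CPM, was at -0.87 with siGOLM1-1 and -0.99 with siGOLM1-2, both called, and neither call held with control replicates 3 and 4 alone (-0.53 and -0.65). ITGA2B had 2.15 to 3.03 CPM with siGOLM1-1, 0.855 to 1.27 with siGOLM1-2 and 2.14 to 3.52 in the control and fell with siGOLM1-2 (-1.56 on the log2 scale, SE 0.20, adjusted p = 2.92e-05). The leukocyte marker list, given above, was also higher with both siRNAs than in the control, and its part in these values was not tested. ITGA7 and ITGAE were not called in any comparison.

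Per kilobase of exon, which allows levels of different genes to be set side by side, ITGB1 was the most abundant beta subunit in every group at 564.6 CPM per kb with siGOLM1-1, 516.3 with siGOLM1-2 and 345.8 in the control. It was followed by ITGB5 (160.04, 138.2 and 114.02 in the same order) and ITGB4 (32.3, 55.7 and 31.1). ITGA3 led the alpha subunits at 73.4, 216.1 and 88.6 CPM per kb, ahead of ITGAV, ITGA5, ITGA6 and ITGA2 in that order in all 3 groups, although the libraries of ITGA5 overlapped those of ITGAV in every group and those of ITGA6 in siGOLM1-1, and those of ITGA6 and ITGA2 overlapped with both siRNAs. LAMB1 and LAMA5 led the laminin chains at 82.4 and 61.4 CPM per kb with siGOLM1-1, 104.6 and 83.5 with siGOLM1-2 and 77.5 and 79.03 in the control, where their ranges overlapped, ahead of LAMC1 and LAMB2. Summed over the 23 subunits, which weights long transcripts more, the CPM reached 3801 to 4527 with siGOLM1-1, 4895 to 5139 with siGOLM1-2 and 3073 to 3289 in the control. The ranges did not overlap. The sums averaged 4101, 4998 and 3158 CPM in the same order, and ITGB1 alone averaged 2219, 2029 and 1359 CPM. Most of the difference between siGOLM1-1 and control in the sums was thus that of ITGB1. The sums do not show that the subunits rose in general with siGOLM1-1.

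**Figure D3:**
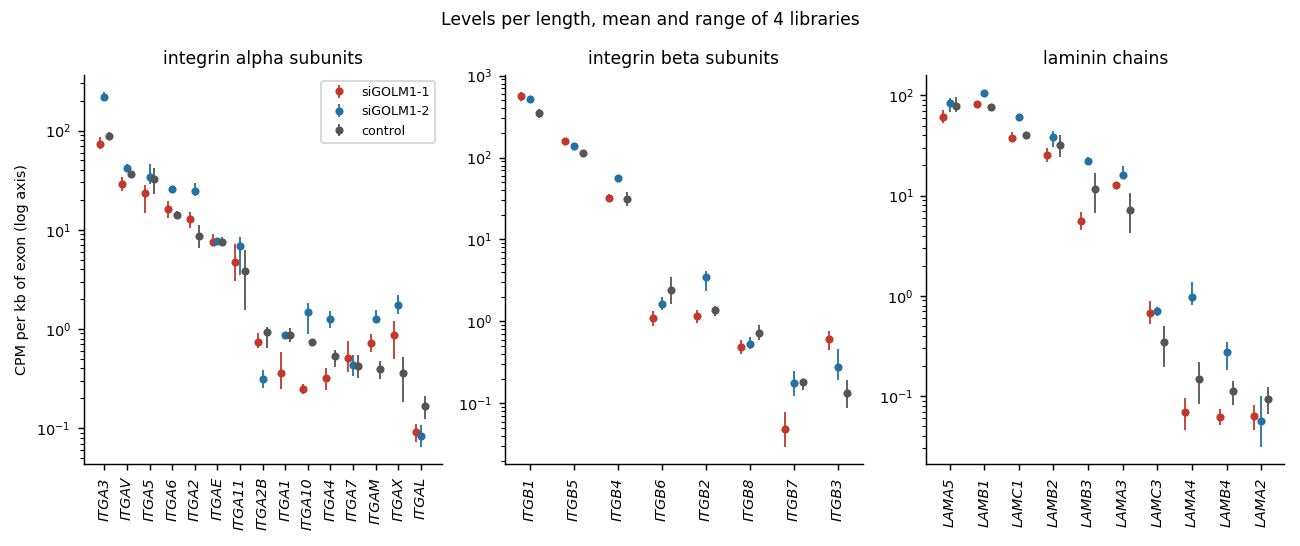
Mean level per kilobase of exon (log axis) of integrin alpha subunits, integrin beta subunits and laminin chains with siGOLM1-1 (red), siGOLM1-2 (blue) and control siRNA (grey), with bars from the lowest to the highest of 4 libraries. ITGB1, ITGA3, and LAMA5 with LAMB1 lie at the top of their families.

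Laminins are trimers of 1 alpha, 1 beta and 1 gamma chain. LAMA3 and LAMB3 encode chains of the epithelial laminin that anchors cells at hemidesmosomes, and with siGOLM1-2 both rose. LAMB3 (ENSG00000196878) was measured at 20.5, 24.7, 30.5 and 24.9 CPM in the siGOLM1-1 libraries, 97.4, 94.3, 98.7 and 109 CPM in the siGOLM1-2 libraries and 30.2, 31.1, 70.7 and 75.8 CPM in the control libraries. The siGOLM1-2 libraries were above all others; the siGOLM1-1 libraries lay near or below control replicates 1 and 2 and far below replicates 3 and 4. LAMB3 rose with siGOLM1-2 (0.94 on the log2 scale, SE 0.26, adjusted p = 0.0104) and fell with siGOLM1-1 (-1.05 on the log2 scale, SE 0.27, adjusted p = 0.00553). With control replicates 1 and 2 alone, LAMB3 was at -0.28 with siGOLM1-1, not called, and at 1.70 with siGOLM1-2; with control replicates 3 and 4 alone it was at -1.53 and 0.46, both called. The rise with siGOLM1-2 was not called with no filter on low counts (0.93, adjusted p = 0.0586). The siRNAs differed by -1.99 (SE 0.27, adjusted p = 3.97e-05) in siGOLM1-1 over siGOLM1-2. This difference uses no control library for its means, while its spread was estimated from all 12 libraries.

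LAMA3 had 130.3, 145, 143 and 151 CPM in the siGOLM1-1 libraries, 163, 163, 167 and 216 CPM in the siGOLM1-2 libraries and 58.4, 46.3, 98.2 and 116 CPM in the control libraries. Every library of either siRNA was above every control library. LAMA3 rose with siGOLM1-1 (0.83 on the log2 scale, SE 0.23, adjusted p = 0.00858) and siGOLM1-2 (1.15 on the log2 scale, SE 0.23, adjusted p = 0.0012), by 1.44 and 1.76 when control replicates 1 and 2 were used alone and by 0.42 and 0.74 when the other pair was. With siGOLM1-1 LAMA3 was thus called higher and LAMB3 lower.

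The proximal 300 bases around a start of LAMB3 and of TNC are shown because these members were called in opposite directions with the siRNAs. Each window runs from 250 bases before to 50 bases after a RefSeq start, 5′ to 3′ on the strand of the gene, in the build GRCh38.p14, which is not the hg19 build of the counts. Capitals mark matches to the GC box (GGGCGG), the AP-1 site (TGANTCA) or the TATA box (TATAA), on either strand. LAMB3 lies on the minus strand at chr1:209651325-209651624 and TNC on the minus strand at chr9:115118108-115118407.
LAMB3: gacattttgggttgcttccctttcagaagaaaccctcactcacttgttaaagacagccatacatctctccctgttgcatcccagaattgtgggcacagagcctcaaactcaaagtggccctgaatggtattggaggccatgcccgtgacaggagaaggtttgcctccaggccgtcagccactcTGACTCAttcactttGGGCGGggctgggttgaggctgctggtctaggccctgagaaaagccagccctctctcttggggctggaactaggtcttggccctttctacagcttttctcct
TNC: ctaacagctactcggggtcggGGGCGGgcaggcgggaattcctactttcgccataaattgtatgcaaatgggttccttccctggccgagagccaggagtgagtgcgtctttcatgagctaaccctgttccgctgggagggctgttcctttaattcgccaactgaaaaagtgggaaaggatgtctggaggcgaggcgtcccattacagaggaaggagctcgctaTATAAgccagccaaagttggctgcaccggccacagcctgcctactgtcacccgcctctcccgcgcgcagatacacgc
RefSeq gives 3 starts for LAMB3, of which the one farthest downstream is shown. Each printed window held 2 matches: an AP-1 site and a GC box in LAMB3, and a GC box and a TATA box in TNC. The windows of the other LAMB3 starts each held 1 GC box and neither of the other motifs. Over the 58 members with a RefSeq window, 37 held a GC box (63.8%, against 48.3% of 27305 genes), 3 an AP-1 site (5.17%, against 9.37%) and 11 a TATA box (19.0%, against 24.2%), in any of a gene's windows. The 27305 genes were taken whatever their counts here, whereas the members had to meet the count rule, so the shares are not of like sets. A match describes the letters only.

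LAMA4, a chain of mesenchymal and vascular laminins, had 0.356, 0.508, 0.567 and 0.741 CPM in the siGOLM1-1 libraries, 6.64, 6.35, 6.73 and 10.9 CPM in the siGOLM1-2 libraries and 0.70, 0.649, 1.52 and 1.73 CPM in the control libraries. It rose with siGOLM1-2 (2.72 on the log2 scale, SE 0.31, adjusted p = 1.53e-05), 6.59-fold, by 3.49 with control replicates 1 and 2 alone and by 2.24 with replicates 3 and 4 alone. Its fall with siGOLM1-1 (-1.11 on the log2 scale, SE 0.35, adjusted p = 0.0181) was lost with control replicates 1 and 2 alone (-0.34) and without control replicate 3, control replicate 4 or siGOLM1-1 replicate 1. LAMB1 and LAMC1 encode the widely expressed beta and gamma chains. LAMB1 had 480.4 to 539 CPM with siGOLM1-1, 634 to 669 with siGOLM1-2 and 452 to 505 in the control, was at 0.09 and not called with siGOLM1-1, and rose with siGOLM1-2 (0.43 on the log2 scale, SE 0.07, adjusted p = 0.000127). LAMC1 had 275 to 340.0 CPM with siGOLM1-1, 473 to 496 with siGOLM1-2 and 289 to 339 in the control, was at -0.10 and not called with siGOLM1-1, and rose with siGOLM1-2 (0.61 on the log2 scale, SE 0.08, adjusted p = 3.99e-05). LAMA5, their usual alpha partner in adult epithelium, had 611 to 823 CPM with siGOLM1-1, 786 to 1068 with siGOLM1-2 and 773 to 1099 in the control and was lower with siGOLM1-1 (-0.37 on the log2 scale, SE 0.13, adjusted p = 0.0311). That call was lost with control replicates 1 and 2 alone (-0.21) and without control replicate 4 or siGOLM1-1 replicate 2 or 3.

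Of the remaining chains, LAMB4 had 0.32 to 0.466 CPM with siGOLM1-1, 1.13 to 2.15 with siGOLM1-2 and 0.508 to 0.886 in the control, with -0.86 for siGOLM1-1 and 1.28 for siGOLM1-2 (adjusted p = 0.0138 and 0.000558); the first was -0.85 and not called with control replicates 3 and 4 alone. LAMC3 had 3.18 to 5.49 CPM with siGOLM1-1, 3.87 to 4.77 with siGOLM1-2 and 1.21 to 3.08 in the control and rose by 0.98 with siGOLM1-1 and 1.04 with siGOLM1-2 (adjusted p = 0.00975 and 0.00721), but by 0.49 and 0.55 and not called with control replicates 1 and 2 alone. LAMB2 was called in the direct comparison alone, at -0.59, and LAMA2, at or below 1.18 CPM, in none. Over the 10 chains described, 2 were called higher (20%, against 23.7% of all genes) and 4 lower (40%, against 23.8%) with siGOLM1-1, with a median of -0.35. With siGOLM1-2, 7 were called higher (70%, against 21.8%), with a median of 0.77, and the other 3 were not called. In the direct comparison, 7 chains were lower with siGOLM1-1 than with siGOLM1-2 (70%, against 26.5% of all genes) and 3 were not called. Summed over these chains, the CPM was 1707 to 2015 with siGOLM1-1, 2412 to 2706 with siGOLM1-2 and 1804 to 2353 in the control.

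TNC, a glycoprotein of remodelling matrix that binds integrins, had the widest contrast between the siRNAs of the 75 members. TNC (ENSG00000041982) was measured at 2.32, 2.65, 1.92 and 2.39 CPM in the siGOLM1-1 libraries, 52, 48, 55.6 and 67.3 CPM in the siGOLM1-2 libraries and 10.5, 8.18, 12.5 and 13.8 CPM in the control libraries. The 3 groups were far apart, with no overlap. TNC fell 4.84-fold with siGOLM1-1 (-2.27 on the log2 scale, SE 0.17, adjusted p = 1.82e-07) and rose 4.95-fold with siGOLM1-2 (2.31 on the log2 scale, SE 0.16, adjusted p = 1.59e-07), and it was 23.9-fold lower with siGOLM1-1 than with siGOLM1-2 (-4.58 on the log2 scale, SE 0.18, adjusted p = 3.36e-10). Both calls against control were kept in all 21 alternative settings.

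The nidogens link laminin to collagen IV. NID1 had 17.6, 14.9, 19.9 and 14.9 CPM in the siGOLM1-1 libraries, 42.9, 44.4, 45.5 and 50.8 CPM in the siGOLM1-2 libraries and 19.6, 17.7, 13.9 and 14.1 CPM in the control libraries. The siGOLM1-2 libraries were above all others, and siGOLM1-1 overlapped the control. NID1 rose with siGOLM1-2 (1.49 on the log2 scale, SE 0.13, adjusted p = 1.07e-06) and was at 0.04 with siGOLM1-1 (SE 0.13, adjusted p = 0.791). NID2 had 49.6 to 79.4 CPM with siGOLM1-1, 40.6 to 63 with siGOLM1-2 and 26.7 to 46.9 in the control. It rose with siGOLM1-1 (0.86 on the log2 scale, SE 0.20, adjusted p = 0.0037; 1.25 with control replicates 1 and 2 alone and 0.56 with the other pair), and was at 0.36 with siGOLM1-2, called (0.75) with control replicates 1 and 2 alone. HSPG2, which encodes the basement membrane proteoglycan perlecan, had 281 to 723 CPM with siGOLM1-1, 395 to 576 with siGOLM1-2 and 200.1 to 407 in the control and was higher with siGOLM1-2 (0.84 on the log2 scale, SE 0.27, adjusted p = 0.0206). That call was lost with no filter on low counts, with control replicates 1 and 2 alone (0.59) and without control replicate 3 or siGOLM1-2 replicate 3.

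Collagen IV forms the network of the basement membrane, and its 6 chain genes lie in 3 pairs that start next to each other and run in opposite directions. In RefSeq the starts of COL4A1 and COL4A2 were 127 bases apart on chromosome 13, those of COL4A4 and COL4A3 419 bases apart on chromosome 2, and those of COL4A6 and COL4A5 380 bases apart on chromosome X, where a further COL4A6 start lies 1416 bases from that of COL4A5. The windows of the plus-strand gene of each pair are shown because the pairs' members did not always move together. COL4A2 lies at chr13:110307034-110307333, COL4A3 at chr2:227164374-227164673 and COL4A5 at chrX:108439588-108439887, all on the plus strand of GRCh38.p14. Capitals mark the part of the window between the start of the gene and that of its neighbour.
COL4A2: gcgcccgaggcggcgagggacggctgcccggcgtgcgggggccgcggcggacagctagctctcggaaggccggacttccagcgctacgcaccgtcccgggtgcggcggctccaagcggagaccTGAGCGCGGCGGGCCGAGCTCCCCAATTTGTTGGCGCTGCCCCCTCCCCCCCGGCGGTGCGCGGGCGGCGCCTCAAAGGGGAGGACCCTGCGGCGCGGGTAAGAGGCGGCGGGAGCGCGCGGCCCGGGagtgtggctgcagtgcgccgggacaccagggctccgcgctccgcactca
COL4A3: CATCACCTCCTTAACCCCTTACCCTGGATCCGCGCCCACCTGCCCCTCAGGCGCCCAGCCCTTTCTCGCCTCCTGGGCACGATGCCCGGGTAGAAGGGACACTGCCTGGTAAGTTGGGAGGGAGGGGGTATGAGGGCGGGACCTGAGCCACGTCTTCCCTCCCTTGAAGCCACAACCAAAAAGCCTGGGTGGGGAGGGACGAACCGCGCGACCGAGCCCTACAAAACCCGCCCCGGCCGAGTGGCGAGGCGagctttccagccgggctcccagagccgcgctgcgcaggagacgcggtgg
COL4A5: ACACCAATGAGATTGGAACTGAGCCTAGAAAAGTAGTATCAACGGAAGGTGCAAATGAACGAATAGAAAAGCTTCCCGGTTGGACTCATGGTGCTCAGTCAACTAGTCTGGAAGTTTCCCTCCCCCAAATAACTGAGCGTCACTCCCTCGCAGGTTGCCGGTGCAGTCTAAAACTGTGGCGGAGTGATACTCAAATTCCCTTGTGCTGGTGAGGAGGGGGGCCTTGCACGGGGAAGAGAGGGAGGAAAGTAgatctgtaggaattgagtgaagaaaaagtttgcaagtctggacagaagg
In COL4A2 the window holds the whole stretch between the starts, and in the other genes a part of it.

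COL4A1 and COL4A2, whose chains assemble into the common collagen IV trimer, differed with siGOLM1-2. COL4A1 had 303, 282, 257 and 298 CPM in the siGOLM1-1 libraries, 221, 234, 199 and 307 CPM in the siGOLM1-2 libraries and 215, 207, 173 and 179 CPM in the control libraries. COL4A2 had 502, 465, 406 and 540.4 CPM in the siGOLM1-1 libraries, 244, 255, 226 and 341 CPM in the siGOLM1-2 libraries and 419.9, 432, 362 and 398 CPM in the control libraries. The siGOLM1-2 libraries were the lowest for COL4A2 but overlapped the control for COL4A1. COL4A2 fell with siGOLM1-2 (-0.59 on the log2 scale, SE 0.12, adjusted p = 0.00145), while COL4A1 was higher (0.31 on the log2 scale, SE 0.12, adjusted p = 0.0469), a call lost in 10 of the 21 alternative settings and at 0.17 without siGOLM1-2 replicate 4. With siGOLM1-1, COL4A1 rose (0.56 on the log2 scale, SE 0.12, adjusted p = 0.00169) and COL4A2 was at 0.25 (SE 0.12, adjusted p = 0.113). The ratio of COL4A1 to COL4A2 within a library, which needs no scaling between libraries, was 0.599 ± 0.035 with siGOLM1-1, 0.900 ± 0.015 with siGOLM1-2 and 0.479 ± 0.026 in the control (SD, n = 4 each). Its ranges of 0.551 to 0.634, 0.879 to 0.916 and 0.449 to 0.511 did not overlap. This ratio was chosen after the values were seen and is given without a test.

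**Figure D4:**
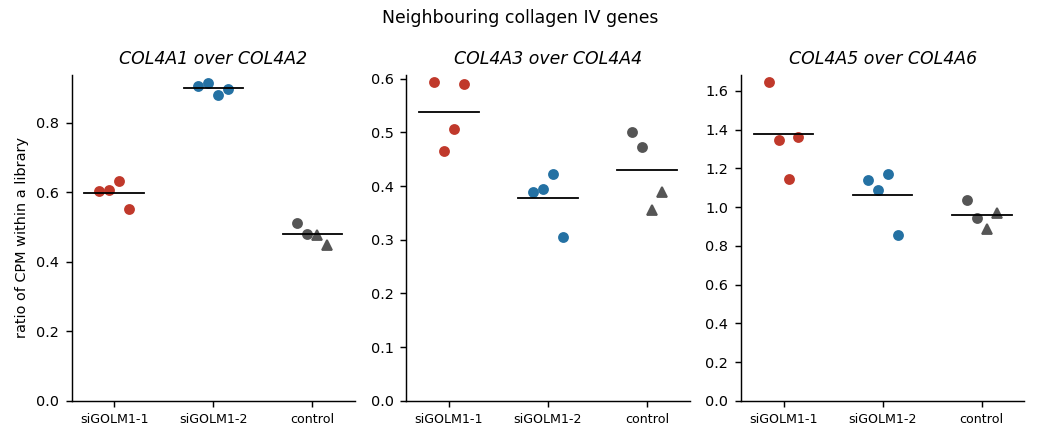
Ratio of CPM within each library for the neighbouring collagen IV genes with siGOLM1-1 (red), siGOLM1-2 (blue) and control siRNA (grey; circles, replicates 1 and 2; triangles, replicates 3 and 4); lines are means. COL4A1 over COL4A2 is 0.879 to 0.916 in the siGOLM1-2 libraries and 0.634 or less in all others.

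COL4A5 and COL4A6, chains of another epithelial collagen IV network, were lower with siGOLM1-1. COL4A6 had 93.4, 71.7, 85.5 and 73.2 CPM in the siGOLM1-1 libraries, 199, 195, 197 and 203 CPM in the siGOLM1-2 libraries and 144, 149.5, 196 and 209 CPM in the control libraries. All siGOLM1-1 libraries were below all others. COL4A6 fell with siGOLM1-1 (-1.11 on the log2 scale, SE 0.12, adjusted p = 6.26e-06) and was at 0.19 with siGOLM1-2 (SE 0.12, adjusted p = 0.219). COL4A5 had 96.5 to 153 CPM with siGOLM1-1, 174 to 231 with siGOLM1-2 and 141 to 202 in the control and was lower with siGOLM1-1 (-0.57 on the log2 scale, SE 0.16, adjusted p = 0.00962), but at -0.37 and not called with control replicates 1 and 2 alone. COL4A3 and COL4A4 were not called against control, and COL4A3 was called in the direct comparison at 0.54 (adjusted p = 0.0465), a call lost in 12 alternatives, 7 of which leave out 1 library.

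Among the fibrillar collagens, COL5A1 and COL5A2 encode minor fibril formers that set fibril diameter with collagen I. COL5A2 had 503 to 647 CPM with siGOLM1-1, 504 to 568 with siGOLM1-2 and 655 to 705 in the control and fell slightly with siGOLM1-1 (-0.33 on the log2 scale, SE 0.09, adjusted p = 0.00617) and siGOLM1-2 (-0.32 on the log2 scale, SE 0.09, adjusted p = 0.00744). COL5A1 had 479 to 676 CPM with siGOLM1-1, 469 to 498 with siGOLM1-2 and 433 to 559 in the control, with 0.30 for siGOLM1-1 (adjusted p = 0.0422), a call lost in 11 of the 21 alternatives, 8 of which leave out 1 library. COL5A3 had 1.59, 0.998, 0.77 and 0.932 CPM in the siGOLM1-1 libraries, 7.04, 6.53, 6.22 and 6.1 CPM in the siGOLM1-2 libraries and 1.04, 1.37, 1.08 and 1.29 CPM in the control libraries. The siGOLM1-2 libraries held all the high values, and siGOLM1-1 overlapped the control. COL5A3 rose 5.42-fold with siGOLM1-2 (2.44 on the log2 scale, SE 0.20, adjusted p = 6.84e-07), with -0.13 for siGOLM1-1 (SE 0.20, adjusted p = 0.611).

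COL1A1 and COL3A1 encode chains of the main interstitial collagens. COL1A1 had 80, 63.8, 48.1 and 92.8 CPM in the siGOLM1-1 libraries, 29.7, 29.7, 28.5 and 21.3 CPM in the siGOLM1-2 libraries and 60.5, 70.4, 32.2 and 34 CPM in the control libraries. It fell with siGOLM1-2 (-0.85 on the log2 scale, SE 0.26, adjusted p = 0.0161), but at -0.26 it was not called with control replicates 3 and 4 alone, nor with no filter on low counts, nor without control replicate 2 or siGOLM1-2 replicate 4, and siGOLM1-1 was at 0.53 (adjusted p = 0.103). COL1A2, the other chain of collagen I, was under the count rule with at most 2 counts in any library. COL3A1 had 1.49, 0.32, 0.365 and 0.423 CPM in the siGOLM1-1 libraries, 7.41, 7.58, 7.09 and 2.98 CPM in the siGOLM1-2 libraries and 2.36, 2.28, 1.16 and 1.33 CPM in the control libraries. It rose with siGOLM1-2 (1.81 on the log2 scale, SE 0.44, adjusted p = 0.00441; 1.43 and not called with control replicates 1 and 2 alone) and fell with siGOLM1-1 (-1.39 on the log2 scale, SE 0.48, adjusted p = 0.0288). The fall was -2.27 without siGOLM1-1 replicate 1, -0.86 and not called with control replicates 3 and 4 alone, and not called with no filter on low counts or without control replicate 1 or 2 or siGOLM1-1 replicate 2, 3 or 4. The fibroblast list, to which neither belongs, was also lower with siGOLM1-1 and higher with siGOLM1-2 than in the control, as given above, and its part was not tested.

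Among the other fibrillar genes, COL11A1 had 32.2, 23, 17.4 and 24.7 CPM in the siGOLM1-1 libraries, 34.8, 35.7, 36.6 and 26.9 CPM in the siGOLM1-2 libraries and 47.6, 49.1, 48.7 and 56.7 CPM in the control libraries. Both siRNA groups were below the control. COL11A1 fell with siGOLM1-1 (-1.05 on the log2 scale, SE 0.15, adjusted p = 8.96e-05) and siGOLM1-2 (-0.59 on the log2 scale, SE 0.15, adjusted p = 0.00622). COL27A1 had 75.3 to 128 CPM with siGOLM1-1, 77 to 91.6 with siGOLM1-2 and 55.4 to 61.9 in the control and rose with siGOLM1-1 (0.70 on the log2 scale, SE 0.13, adjusted p = 0.00049) and siGOLM1-2 (0.56 on the log2 scale, SE 0.13, adjusted p = 0.00272). COL24A1, on 10 to 75 counts per library, rose with siGOLM1-1 (1.48 on the log2 scale, SE 0.32, adjusted p = 0.00172). COL11A2 was lower with siGOLM1-1 (-0.83 on the log2 scale, SE 0.28, adjusted p = 0.0276), a call lost with no filter on low counts, with control replicates 3 and 4 alone (-0.56) and without control replicate 2 or siGOLM1-1 replicate 2 or 3.

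Collagen VI forms beaded filaments near the cell surface. COL6A1 had 37.1, 49.4, 71.7 and 59 CPM in the siGOLM1-1 libraries, 60.4, 60.5, 54.4 and 97.3 CPM in the siGOLM1-2 libraries and 25, 25.8, 27 and 30.1 CPM in the control libraries. Both siRNA groups were above the control, and they overlapped each other. COL6A1 rose with siGOLM1-1 (1.01 on the log2 scale, SE 0.20, adjusted p = 0.00119) and siGOLM1-2 (1.34 on the log2 scale, SE 0.20, adjusted p = 0.000168). Its partner COL6A2 had 18.4 to 39.8 CPM with siGOLM1-1, 38.5 to 71.4 with siGOLM1-2 and 12.5 to 15.3 in the control and rose likewise (1.03 with siGOLM1-1 and 1.81 with siGOLM1-2, adjusted p = 0.00235 and 4.10e-05). COL6A3, the remaining main chain of the trimer, had 4 to 20 counts per library and was not called. COL28A1, a relative of collagen VI, had 0.839 to 1.84 CPM with siGOLM1-1, 3.7 to 6.64 with siGOLM1-2 and 0.921 to 1.46 in the control and rose with siGOLM1-2 (1.93 on the log2 scale, SE 0.27, adjusted p = 6.00e-05). COL7A1, which forms the anchoring fibrils under hemidesmosomes, had 433 to 775 CPM with siGOLM1-1, 443 to 626 with siGOLM1-2 and 551 to 697 in the control and was not called in any comparison.

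The transmembrane collagens and multiplexins were split between the siRNAs. COL17A1, a transmembrane collagen of hemidesmosomes, had 2.84, 1.43, 2.21 and 1.76 CPM in the siGOLM1-1 libraries, 6.46, 6.21, 6.36 and 5.39 CPM in the siGOLM1-2 libraries and 2.4, 1.85, 1.48 and 1.75 CPM in the control libraries. The siGOLM1-2 libraries were above all others. COL17A1 rose with siGOLM1-2 (1.7 on the log2 scale, SE 0.20, adjusted p = 1.70e-05) and was at 0.14 with siGOLM1-1 (adjusted p = 0.584). COL13A1, found at focal adhesions, had 0.313, 0.433, 1.07 and 0.572 CPM in the siGOLM1-1 libraries, 3.39, 3.3, 3.15 and 5.87 CPM in the siGOLM1-2 libraries and 0.50, 0.481, 0.0635 and 0.101 CPM in the control libraries. It rose with siGOLM1-2 (3.78 on the log2 scale, SE 0.51, adjusted p = 6.57e-05), by 2.99 with control replicates 1 and 2 alone and by 5.55 with the other pair, where control replicates 3 and 4 held 3 and 5 counts. COL18A1, the basement membrane multiplexin that yields endostatin, had 691, 560.0, 553 and 708 CPM in the siGOLM1-1 libraries, 334, 316, 321 and 261 CPM in the siGOLM1-2 libraries and 374, 410.0, 322 and 365 CPM in the control libraries. The siGOLM1-1 libraries were above all others, and siGOLM1-2 overlapped the control. COL18A1 rose with siGOLM1-1 (0.77 on the log2 scale, SE 0.11, adjusted p = 6.19e-05) and was at -0.26 with siGOLM1-2 (SE 0.11, adjusted p = 0.0673). COL15A1, the related multiplexin, had 2.65 to 3.92 CPM with siGOLM1-1, 0.92 to 1.31 with siGOLM1-2 and 1.5 to 2.94 in the control and was lower with siGOLM1-2 (-1.04 on the log2 scale, SE 0.24, adjusted p = 0.00299; -0.55 and not called with control replicates 1 and 2 alone). COL26A1 had 0.471 to 1.04 CPM with siGOLM1-1, 0.477 to 1.12 with siGOLM1-2 and 1.68 to 2.35 in the control and fell with both (-1.57 with siGOLM1-1 and -1.17 with siGOLM1-2, adjusted p = 0.000497 and 0.00384).

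FACIT collagens sit on the surface of fibrils. COL16A1 had 8.73, 8.85, 9.06 and 10.7 CPM in the siGOLM1-1 libraries, 19.3, 18.6, 17.9 and 18.8 CPM in the siGOLM1-2 libraries and 9.39, 10.8, 13.8 and 13.7 CPM in the control libraries. The siGOLM1-2 libraries were above all others. COL16A1 rose with siGOLM1-2 (0.65 on the log2 scale, SE 0.12, adjusted p = 0.000616), and its fall with siGOLM1-1 (-0.35, adjusted p = 0.0271) was lost in 7 alternatives, among them control replicates 1 and 2 alone (-0.11) and each of 5 that leave out 1 library. COL20A1 had 2.03 to 4.26 CPM with siGOLM1-1, 0.378 to 0.949 with siGOLM1-2 and 2.48 to 7.59 in the control and fell with siGOLM1-2 (-2.92 on the log2 scale, SE 0.42, adjusted p = 0.000104). COL22A1 had 1.37 to 2.12 CPM with siGOLM1-1, 1.62 to 2.18 with siGOLM1-2 and 0.463 to 1.2 in the control and rose by 0.92 with siGOLM1-1 and 1.1 with siGOLM1-2 (adjusted p = 0.0111 and 0.00404), where control replicates 1 and 2 alone gave 0.48, not called, and 0.66. COL9A3, on 16 to 71 counts per library, rose with siGOLM1-2 (1.34 on the log2 scale, SE 0.25, adjusted p = 0.00079). COL14A1 had 2, 4, 0 and 0 counts with siGOLM1-1, 22, 23, 17 and 18 with siGOLM1-2, and 24, 30, 2 and 2 in the control. It was called lower with siGOLM1-1 (adjusted p = 0.0116), and not with control replicates 3 and 4 alone, where both libraries held 2 counts. COL9A2, COL12A1 and COL21A1 were not called in the 3 comparisons. Summed over all collagens, the CPM was 3326 to 4224 with siGOLM1-1, 3219 to 3408 with siGOLM1-2 and 3299 to 3653 in the control, and the ranges overlapped.

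Genes whose names begin with ITGB but which are no integrin subunits were also taken in by the rule. ITGB1BP1, which binds the tail of ITGB1 and restrains its activation, had 53.7 to 68.5 CPM with siGOLM1-1, 86.5 to 111 with siGOLM1-2 and 69.6 to 87.5 in the control. It fell with siGOLM1-1 (-0.39 on the log2 scale, SE 0.10, adjusted p = 0.00691; -0.24 and not called with control replicates 1 and 2 alone) and was higher with siGOLM1-2 by 0.28 (adjusted p = 0.0383), a call lost in 6 alternatives, 5 of which leave out 1 library and 1 of which is control replicates 3 and 4 alone (0.17). ITGBL1, a secreted protein with integrin beta-like repeats, rose with siGOLM1-2 (1.16 on the log2 scale, SE 0.28, adjusted p = 0.00443). ITGB3BP, a centromere protein, fell with siGOLM1-2 (-0.81 on the log2 scale, SE 0.19, adjusted p = 0.00313; -0.54 and not called with control replicates 3 and 4 alone). ITGB1BP2, a muscle protein at 0.132 to 1.32 CPM, was lower with siGOLM1-1 (-1.3 on the log2 scale, SE 0.39, adjusted p = 0.013; -0.94 and not called with control replicates 3 and 4 alone). ITGB1P1, named as a pseudogene of ITGB1, had 15.2 to 16 CPM with siGOLM1-1, 12.4 to 15 with siGOLM1-2 and 7.99 to 11.4 in the control and values close to those of ITGB1 (0.75 and 0.61), and counts of near copies are uncertain.

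For 28 of the 75 members the control pairs lay at least 0.5 apart on the log2 scale (with 0.1 CPM added), and for 11 at least 1 apart: COL14A1, ITGA11, COL13A1, COL20A1, LAMC3, COL21A1, ITGAX, COL6A3, LAMA3, LAMA4 and LAMB3. Members were called higher 16 times and lower 20 times with siGOLM1-1 when control replicates 1 and 2 were used alone, and 21 and 20 times when the other pair was. With siGOLM1-2 the counts were 37 and 12, and 38 and 9. Of all genes tested, 18198 with control replicates 1 and 2 alone and 18206 with the other pair, 7254 and 7351 were called with siGOLM1-1. With siGOLM1-2, 6567 and 7110 were called. These totals were not split into higher and lower, and the distance between control pairs was not computed over all genes. The counts of members in these refits and by pair distance thus lack a background share and are not read as a trait of the members.

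**Figure D5:**
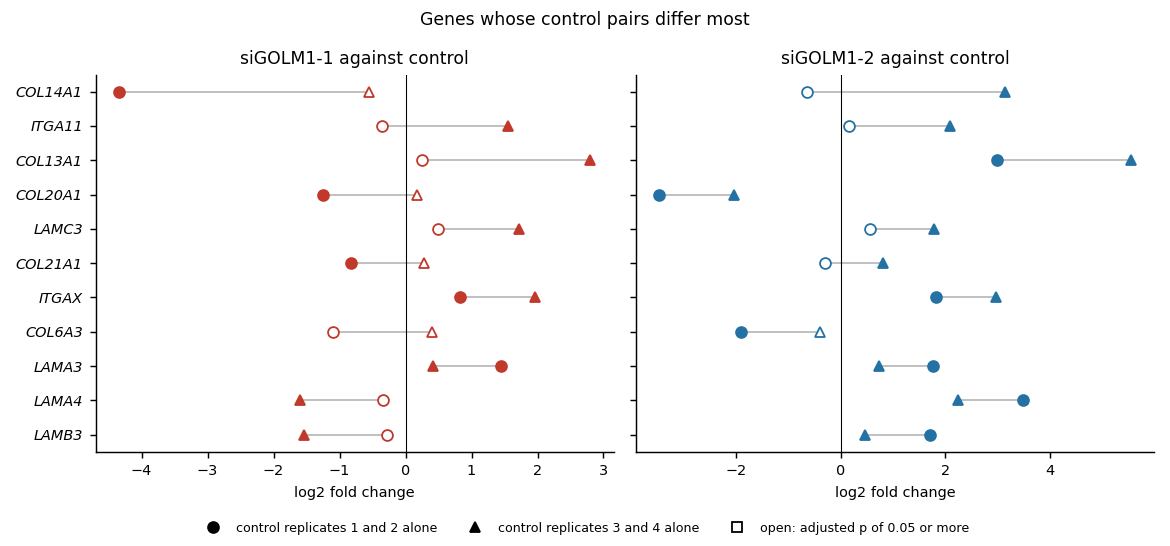
Log2 fold change with siGOLM1-1 (left) and siGOLM1-2 (right) of the 11 members whose control pairs lay at least 1 apart, refitted with control replicates 1 and 2 alone (circles) or 3 and 4 alone (triangles); open symbols have an adjusted p of 0.05 or more. LAMB3 with siGOLM1-1 is at -0.28 or -1.53 depending on the pair.

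Genes that make, bind or work with these proteins are given as lists for setting. The median log2 difference of each list's tested genes with siGOLM1-1 was 0.14 for collagen processing, 0.03 for integrin adaptors and focal adhesion, 0.20 for other matrix proteins and 0.06 for other matrix receptors. With siGOLM1-2 the medians were 0.28, -0.11, 0.52 and 0.28 for the same lists, and over all genes tested the median was -0.01 with either siRNA. Of 29 tested genes for collagen processing, 7 were called higher (24.1%, against 23.7% of all genes) and 6 lower (20.7%, against 23.8%) with siGOLM1-1, both near the background. With siGOLM1-2, 15 were called higher (51.7%, against 21.8%) and 2 lower (6.9%, against 23.2%). PLOD3, a lysyl hydroxylase that also adds sugars to collagen, had 8.94 to 11.9 CPM with siGOLM1-1, 109 to 125 with siGOLM1-2 and 68.7 to 87 in the control. It fell with siGOLM1-1 (-2.91 on the log2 scale, SE 0.11, adjusted p = 5.09e-10) and rose with siGOLM1-2 (0.54 on the log2 scale, SE 0.10, adjusted p = 0.000558). FKBP14, a collagen-folding prolyl isomerase, fell with siGOLM1-1 (-1.95 on the log2 scale, SE 0.08, adjusted p = 7.91e-10) and rose with siGOLM1-2 (0.24 on the log2 scale, SE 0.07, adjusted p = 0.0175). SERPINH1, the collagen chaperone, rose with siGOLM1-1 (0.87 on the log2 scale, SE 0.08, adjusted p = 1.22e-06) and siGOLM1-2 (0.73 on the log2 scale, SE 0.08, adjusted p = 8.15e-06). LEPREL4 and CRTAP, parts of complexes that modify collagen chains, rose with siGOLM1-2 by 0.57 and 0.42.

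Of 33 integrin adaptor and focal adhesion genes, 11 were called higher (33.3%, against 23.7% of all genes) and 7 lower (21.2%, against 23.8%) with siGOLM1-1, and 6 higher (18.2%, against 21.8%) and 11 lower (33.3%, against 23.2%) with siGOLM1-2. VCL, the adaptor vinculin, had 307 to 349 CPM with siGOLM1-1, 298 to 331 with siGOLM1-2 and 427 to 508 in the control and fell with siGOLM1-1 (-0.51 on the log2 scale, SE 0.08, adjusted p = 9.63e-05) and siGOLM1-2 (-0.56 on the log2 scale, SE 0.08, adjusted p = 5.07e-05). SRC, the kinase, rose by 1.2 with siGOLM1-1 and 0.54 with siGOLM1-2, and FERMT2, a kindlin that helps to activate integrins, by 0.76 with siGOLM1-1, with 0.03 and no call for siGOLM1-2. KRIT1 fell with siGOLM1-2 (-1.09) and KANK1 rose (0.73).

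Of 34 other matrix genes, 14 were called higher (41.2%, against 23.7% of all genes) and 7 lower (20.6%, against 23.8%) with siGOLM1-1, and 18 higher (52.9%, against 21.8%) and 4 lower (11.8%, against 23.2%) with siGOLM1-2. MATN2, a matrix adaptor protein, had 88.3 to 122 CPM with siGOLM1-1, 69.8 to 76.8 with siGOLM1-2 and 23 to 28.9 in the control and rose with siGOLM1-1 (2.04 on the log2 scale, SE 0.11, adjusted p = 9.34e-09) and siGOLM1-2 (1.5 on the log2 scale, SE 0.11, adjusted p = 2.32e-07). NPNT, a ligand of the integrin of ITGA8 and ITGB1, had 0.565 to 0.754 CPM with siGOLM1-1, 7.77 to 10.1 with siGOLM1-2 and 4.32 to 6.2 in the control. It fell with siGOLM1-1 (-3.01 on the log2 scale, SE 0.17, adjusted p = 1.54e-08) and rose with siGOLM1-2 (0.82 on the log2 scale, SE 0.14, adjusted p = 0.000426), in the directions of TNC. TGFBI, a secreted adhesion protein that binds collagen and integrins, rose by 0.88 with siGOLM1-1 and fell with siGOLM1-2 (-0.27), while FBN1 and ECM1 rose with siGOLM1-2 (2.72 and 2.09). Of 23 other matrix receptors, 8 were called higher (34.8%, against 23.7% of all genes) and 2 lower (8.7%, against 23.8%) with siGOLM1-1, and 11 higher (47.8%, against 21.8%) and 2 lower (8.7%, against 23.2%) with siGOLM1-2. The proteoglycans GPC1 and SDC3 rose by 1.6 and 1.02 and the collagen receptor kinase DDR1 by 0.83 with siGOLM1-1. SDC3 was also among the 3 genes of this list with the smallest p with siGOLM1-2, beside CD9 and CD47. The integrin-associated CD9 fell with siGOLM1-1 (-0.43) and rose with siGOLM1-2 (0.54), and CD47 rose with siGOLM1-2 (0.90).

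Depth limits the rarest members. Of the 75, 70 had at least 10 counts in every library, and 5 did not: ITGB7, ITGB1BP2, COL14A1, COL6A3 and COL13A1. The 16 genes that matched by name but not by counts had at most 17 counts in any library. They were ITGA8, ITGA9, ITGAD, LAMA1, COL1A2, COL2A1, COL6A5, COL6A6, COL8A1, COL8A2, COL9A1, COL10A1, COL19A1, COL23A1, COL25A1 and a further ITGB3 entry without counts. Since the read counter, its annotation and its strand setting are not given in the sources used here, counts of genes that overlap another gene are uncertain, and the neighbouring collagen IV genes start close together. In the results the authors deposited, 44 members passed an adjusted p of 0.05 with siGOLM1-1, 43 of them called here in the same direction, and 49 with siGOLM1-2, all of them called here.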

How the data were processed

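RNA of A549 cells was sequenced in 12 libraries, 4 per group, from a stranded mRNA kit in paired-end mode, per the labels' protocols. The submitters' processing notes name bcl2fastq 2.20, STAR 2.7.3, hg19 and DESeq2 1.24.0; how reads were counted, on which annotation release and strand, is not given in the sources used here. The authors deposited unscaled read counts for 57773 genes, 24653 of them without a read in all 12 libraries. Their result files, made with DESeq2, give per the file headers the base mean (a signal), the log2 ratio and its error, the test score, the p-value and its adjusted form, and served to compare calls alone.

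The counts went into edgeR 4.0.16 (R 4.3.3). The filterByExpr filter left 17532 genes; counts were scaled with TMM factors and fitted in 1 robust quasi-likelihood model of all 12 libraries with 9 residual degrees of freedom and a common biological coefficient of variation of 0.146. Calls used an adjusted p under 0.05 over all genes tested, and errors of fold changes are standard errors on the log2 scale. The fit treats libraries as independent, although control libraries deviated in pairs, so p-values against control may be too small. The computation was tested on simulated data of independent libraries. Those held no control pairs, so they cannot show what the pairs do to the p-values. CPM are counts per M counts of the TMM-scaled library total. Levels per kilobase divide CPM by merged exon length from GENCODE release 29 basic transcripts, matched by gene, which is not the annotation of the counts.

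Alternatives were DESeq2 1.42.0, library totals or DESeq2 size factors as scaling, a minimum of 1 CPM in 4 libraries or no filter, the 2 compared groups alone, the replicate number as a block, each control pair alone, and each library left out. The members, related lists and markers were chosen with earlier results of these data known. Of the 76 members by the rule, 1 is not reported here and is left out of the members' counts, medians and sums. Named were GOLM1, every other member by family, and of each related list the 3 genes with the smallest p per comparison with control. Promoter windows are from RefSeq on GRCh38.p14 and were found for 58 of the 75 members; proteins were not used here. GLT25D1, GLT25D2 and PECAM1 were not matched by name.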

Additional observations from a re-analysis of the deposited data

Results flagged for a closer look

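In 23 of 225 groups of 4 libraries (75 members in 3 groups), 1 library lay far from the other 3 by Dixon's 95% criterion, which weighs the gap to the nearest library against the whole range; chance gives about 1 in 20. Of these, 14 were siGOLM1-2 replicate 4. Over all genes tested, deviations of the other siGOLM1-2 libraries from the group mean correlated at 0.03 to 0.37 with each other. They correlated at -0.80 to -0.52 with those of siGOLM1-2 replicate 4. That library was high, with the range of the other 3 siGOLM1-2 libraries after it, for ITGA5 (204 CPM, against 129 to 139), ITGAM (7.34 CPM, against 5.61 to 5.62), ITGB3 (2.05 CPM, against 0.842 to 1.02), LAMA3 (216 CPM, against 163 to 167), LAMA4 (10.9 CPM, against 6.35 to 6.73), COL6A1 (97.3 CPM, against 54.4 to 60.5), COL28A1 (6.64 CPM, against 3.70 to 3.94) and COL13A1 (5.87 CPM, against 3.15 to 3.39). It was low for ITGB3BP (9.27 CPM, against 12.1 to 12.4), HSPG2 (395 CPM, against 552 to 576), COL1A1 (21.3 CPM, against 28.5 to 29.7), COL3A1 (2.98 CPM, against 7.09 to 7.58), COL5A2 (504 CPM, against 561 to 568) and COL12A1 (80.4 CPM, against 105 to 107). Library siGOLM1-1 replicate 1 stood apart for COL4A5 at 153 CPM (the others 96.5 to 99.6), COL3A1 at 1.49 CPM (the others 0.320 to 0.423) and COL9A2 at 0.740 CPM (the others 0.339 to 0.381). Library siGOLM1-1 replicate 4 stood apart for COL16A1 at 10.7 CPM (the others 8.73 to 9.06). Library siGOLM1-2 replicate 3 stood apart for ITGB1P1 at 12.4 CPM (the others 14.6 to 15.0). Control replicate 2 stood apart for COL9A2 at 0.842 CPM (the others 0.242 to 0.340). Control replicate 3 stood apart for ITGA2B at 2.14 CPM (the others 3.30 to 3.52) and ITGB5 at 523 CPM (the others 489 to 491). Control replicate 4 stood apart for COL11A1 at 56.7 CPM (the others 47.6 to 49.1). The reason was not tested, and what the calls become without a library is given beside the genes it decides.

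For 45 members the siRNAs differed in the direct comparison of siGOLM1-1 with siGOLM1-2 (edgeR's quasi-likelihood test, adjusted p under 0.05), and their log2 fold changes, siGOLM1-1 over siGOLM1-2, follow by family. Among integrin alpha subunits the value was -1.27 for ITGA1, -0.92 for ITGA2, 1.22 for ITGA2B, -1.56 for ITGA3, -1.98 for ITGA4, -0.68 for ITGA6, -2.57 for ITGA10, -0.52 for ITGAV, -0.84 for ITGAM and -1.0 for ITGAX. Among integrin beta subunits the value was -1.58 for ITGB2, 1.17 for ITGB3, -0.79 for ITGB4, 0.21 for ITGB5 and -1.76 for ITGB7. Among ITGB-named genes that are not subunits the value was -0.67 for ITGB1BP1 and -1.83 for ITGBL1. Among laminin chains the value was -3.83 for LAMA4, -0.44 for LAMA5, -0.34 for LAMB1, -0.59 for LAMB2, -1.99 for LAMB3, -2.15 for LAMB4 and -0.71 for LAMC1. Among nidogens, perlecan and tenascin C the value was -1.45 for NID1 and -4.58 for TNC. Among basement membrane collagen IV the value was 0.84 for COL4A2, 0.54 for COL4A3, -0.91 for COL4A5 and -1.29 for COL4A6. Among fibrillar collagens the value was 1.38 for COL1A1, -3.20 for COL3A1, -2.57 for COL5A3, -0.46 for COL11A1 and 0.90 for COL24A1. Among FACIT and related collagens the value was -1.02 for COL9A3, -3.70 for COL14A1, -1.0 for COL16A1 and 2.22 for COL20A1. Among beaded-filament and anchoring collagens the value was -0.78 for COL6A2 and -1.69 for COL28A1. Among transmembrane, multiplexin and other collagens the value was -2.74 for COL13A1, -1.56 for COL17A1, 1.5 for COL15A1 and 1.03 for COL18A1. The calls of COL4A3, COL11A1 and COL24A1 were each lost when any of several single libraries was left out.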

How the results depend on the processing

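Across 21 alternative settings, the counts of members called stayed within 1.5 times those reported, and no called value changed sign; 82 values in 29 members changed sign while uncalled, of 4542 alternative values. Calls held in every setting numbered 23 of 43 for siGOLM1-1 against control, 36 of 49 for siGOLM1-2 against control and 41 of 45 for siGOLM1-1 against siGOLM1-2. The direct comparison had at most 19 alternatives, since the fits with a control pair alone were not applied to it. Those fits ended many calls against control, so the last count is not comparable with the others. When 1 library was left out at a time, members called higher and lower numbered 17 to 20 and 20 to 25 with siGOLM1-1, 34 to 38 and 10 to 12 with siGOLM1-2, and 8 to 13 and 34 to 38 in siGOLM1-1 against siGOLM1-2. Of the 17723 to 17822 genes then tested, 7472 to 8700, 6904 to 8329 and 8630 to 9614 were called in the same order. Same-numbered libraries of different groups correlated at -0.29 to 0.45, over 0.1 in 5 of 12 pairs, so the numbers were not taken to pair samples. With the replicate number as a block, 20 members were higher and 27 lower with siGOLM1-1, 38 and 11 with siGOLM1-2, and 11 and 38 in the direct comparison, and 8389, 7929 and 9613 genes were called in all. The totals of all genes in the blocked fit and in the fits without 1 library were not split by direction. Library totals alone moved the split of all genes called against control with siGOLM1-2 to 4682 higher and 3233 lower, from 3814 and 4071, and in the direct comparison to 3564 and 5957, from 4887 and 4654. Depth limits the members with under 10 counts in some libraries, and control libraries that deviate in pairs limit those whose pairs differ.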
